A study of Mus musculus with 40 samples.

Results

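The comparison set the total colonic tissue of mice that carried the gut protozoan Tritrichomonas musculis (T.mu) against that of uncolonized mice 48 days after inoculation. It used 8 of the 40 libraries of the series: 4 libraries labelled total colonic tissue with T.mu as the inoculum and 4 labelled with no inoculum, chosen by these labels alone. All 45792 mouse gene rows of the count table were taken, and 11696 of them had enough counts to be tested. The colonized mice had each been given 2000000 T.mu cells purified by flow sorting, and the control mice none. No strain, age or sex of the mice was used here. Each arm held 1 library from each of litters 1 to 4, and libraries are named below by arm and litter number. The same series profiled total tissue and colonic epithelium at days 3, 14 and 48, and those libraries are used below only where the day 48 tissue is set against them. The libraries were made from total RNA with a 3′ digital gene expression protocol, which reads the 3′ ends of transcripts. Values are CPM, the count of a gene taken relative to the total of its library, scaled between libraries with the trimmed mean of M values (TMM).

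T. musculis lives in the lumen of the mouse caecum and colon, against the epithelium, and is a commensal rather than an invasive parasite. Interferons bound to their receptors act through STAT and IRF proteins, which switch on a large set of genes for the sensing of nucleic acids, the restriction of intracellular microbes and the presentation of antigen on MHC class I. Inflammasomes are a separate sensing route, in which caspases release IL-1 family cytokines, and the release of IL-18 by the epithelium is a known feature of colonization with this protozoan. Total colonic tissue holds the epithelium with the lamina propria, vessels, nerves, muscle and attached fat, so a lower transcript level can come from fewer cells of a type or from less RNA per cell, and these cannot be told apart here.

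Of the 117 genes that rose, 37 stood on a list of interferon response genes, so the sequence just upstream of 4 of them is shown before the values. These 4 were chosen for their motif matches after values and matches were seen, and each run is the 250 bases upstream of an annotated start in RefSeq (build GRCm38.p6), written 5′ to 3′ on the strand of the gene. Capitals mark matches on either strand to GAAANNGAA, the shared core of interferon-stimulated response elements, or to TTCNNNGAA, the core of gamma-activated sequences.
B2m (chr2:122147437-122147686, + strand): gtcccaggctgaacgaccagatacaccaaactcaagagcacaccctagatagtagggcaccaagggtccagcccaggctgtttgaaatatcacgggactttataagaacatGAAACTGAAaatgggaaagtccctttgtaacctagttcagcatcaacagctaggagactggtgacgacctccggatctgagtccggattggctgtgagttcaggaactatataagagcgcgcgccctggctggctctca
Igtp (chr11:58199306-58199555, + strand): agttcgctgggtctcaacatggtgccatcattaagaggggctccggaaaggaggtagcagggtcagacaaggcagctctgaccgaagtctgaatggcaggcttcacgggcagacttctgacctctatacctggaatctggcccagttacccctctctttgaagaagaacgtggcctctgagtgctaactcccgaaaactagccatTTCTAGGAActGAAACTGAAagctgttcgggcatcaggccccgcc
Oas1a (chr5:120907526-120907775, - strand): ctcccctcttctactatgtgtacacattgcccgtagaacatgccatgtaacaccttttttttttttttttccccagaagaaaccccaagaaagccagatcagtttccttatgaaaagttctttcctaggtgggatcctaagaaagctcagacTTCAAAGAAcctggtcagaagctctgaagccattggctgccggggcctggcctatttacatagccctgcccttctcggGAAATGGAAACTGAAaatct
Ifit1bl2 (chr19:34640744-34640993, - strand): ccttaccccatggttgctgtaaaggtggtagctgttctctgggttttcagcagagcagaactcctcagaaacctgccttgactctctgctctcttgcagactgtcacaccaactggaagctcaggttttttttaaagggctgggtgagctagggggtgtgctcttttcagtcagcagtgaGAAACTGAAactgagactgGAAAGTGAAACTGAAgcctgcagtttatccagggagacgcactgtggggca
B2m held 1 match to GAAANNGAA, Igtp and Oas1a each held both motifs, and this start of Ifit1bl2 held 3 matches to GAAANNGAA, 2 of them overlapping. Over all tested genes with a promoter entry, 684 of 9016 (7.59%) held GAAANNGAA. Among the genes that rose at day 48 it was 25 of 98 (25.5%), and among those that fell 6 of 76 (7.89%). Of the genes that rose, those on an interferon list held it in 14 of 29 (48.3%) and the others in 11 of 69 (15.9%). TTCNNNGAA stood in 7.28% of all tested promoters, in 11 of 98 (11.2%) of those that rose and in 6 of 76 (7.89%) of those that fell. A match is a string of letters and not a shown binding site.

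The arms differed in depth and in library layout. Control libraries held 2223459 to 6756802 counts and T.mu libraries 239291 to 1365299, without overlap, and 70 splits of 8 libraries can give no smaller p than this one (exact permutation test, two-sided, p = 0.0286, 0.0571 adjusted over 4 library measures). No i5 index was shared between the arms, so index and arm cannot be told apart. Thinned to 236155 counts, controls had 12063 to 12654 genes with a count and T.mu libraries 9030 to 11468 (p = 0.0286, adjusted 0.0571, exact permutation test). Counts of mitochondrially encoded genes made up 11.9% to 15.2% in controls and 13.7% to 20.8% with T.mu (p = 0.0571, adjusted 0.0762, exact permutation test). Markers that define colonic tissue, those of absorptive colonocytes, goblet cells, smooth muscle and fibroblasts, were present in all 8 libraries. The series design speaks of groups of 3 mice whereas 4 libraries per arm are labelled, so separate mice are taken from the litter labels. Permutation p-values rest on these 8 libraries. Those of edgeR below rest on a spread between libraries that is shared with the day 3 and day 14 tissue.

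At day 48, 211 of the 11696 tested genes (1.8%) passed an adjusted p of 0.05 in edgeR's quasi-likelihood test with Benjamini-Hochberg adjustment. Of these, 117 (1%) rose and 94 (0.804%) fell in the T.mu arm. These shares of all tested genes are the background for every count of list members below. The genes with the smallest p were led by interferon targets such as Zbp1, Igtp and Oas1a, by the amino acid transporter Slc6a14 and by the caspase gene Casp4. The 15 named genes that fell with the smallest p held Uqcr11, Chchd10 and Coq4 of the mitochondrion, the iron store Ftl1, the metallothionein Mt2, the ribosomal genes Rpl8 and Rps26, and Rbp4 of the adipocyte list. All 4 litter pairs moved the same way in 107 of the 117 and in 91 of the 94. The 4 T.mu libraries lay wholly above the 4 controls in 88 of the 117 genes that rose and wholly below in 87 of the 94 that fell. These genes were called from the same 8 libraries, so both kinds of count describe the calls and lend them no support. Over all tested genes, 2.71% lay wholly above and 6.72% wholly below. With relative log expression scaling the split was 170 higher and 89 lower.

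Effects depended on the base composition of the gene. Across 11673 genes with an annotated sequence, the log2 fold change had a Spearman correlation of -0.37 with GC content and of 0.09 with length, a description across genes that are not independent replicates. Median log2 fold changes went from 0.22 in the bin of genes (of 10 equal bins) with the lowest GC content, where 32 genes rose and 0 fell, to -0.46 in the bin with the highest, where 0 rose and 32 fell. Within libraries, the correlation of a gene's deviation with GC content was -0.04 to 0.27 in controls and -0.18 to -0.14 with T.mu. When GC content and length were fitted as offsets per library, 75 genes rose and 44 fell, and the correlation with GC content was 0.02. All 15 of the genes with the smallest p that rose kept their call with these offsets, and 11 of the 15 that fell did. Some of their effects were smaller with the offsets, among them those of B2m (log2 fold change 0.91 without and 0.59 with them, edgeR adjusted p = 0.029), Ncoa7 (0.98 and 0.64), Slc6a14 (1.31 and 0.91) and Casp4 (1.45 and 1.02).

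**Figure D1:**
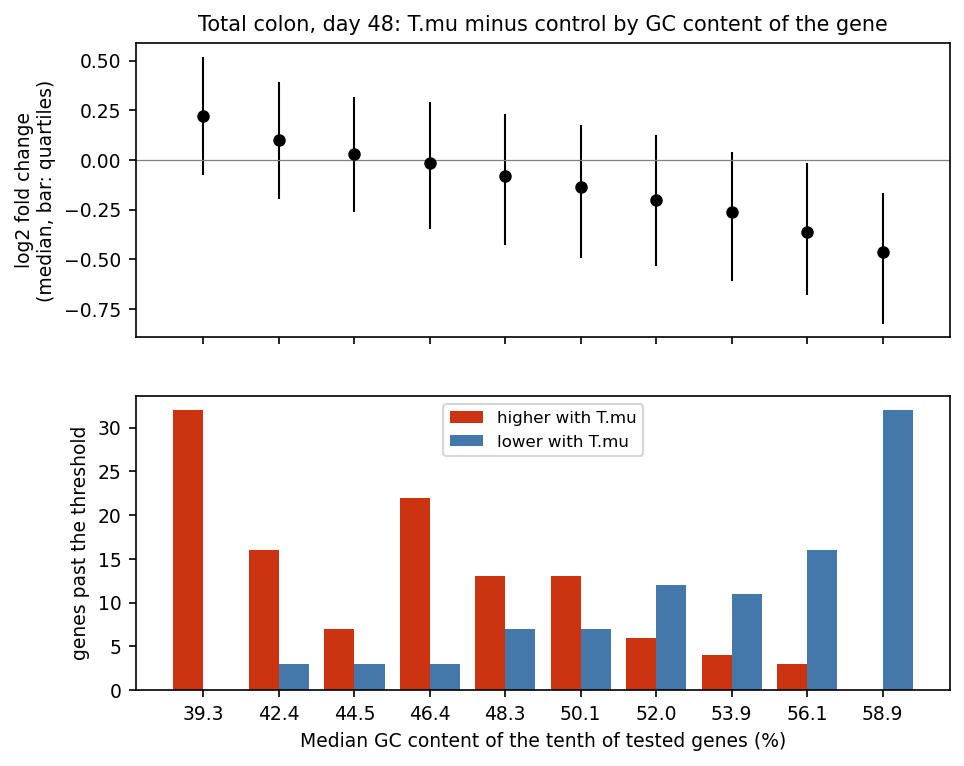
Effect of T.mu in total colon at day 48 by GC content, over 10 equal bins of the tested genes (x axis, median GC content in percent). The upper panel gives the median log2 fold change with bars from the lower to the upper quartile, and the lower panel the number of genes past the threshold in each direction. The median falls from 0.22 to -0.46, and calls go from 32 higher and 0 lower to 0 higher and 32 lower.

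Sensors and signalling genes of the type I interferon response rose together. Zbp1, a cytosolic nucleic acid sensor, stood at 22.3, 12.3, 10.1 and 20.6 CPM in control litters 1 to 4 and at 52.2, 72.2, 78.2 and 80.7 CPM in T.mu litters 1 to 4. The groups did not overlap, and the lowest T.mu library was above every control. Its log2 fold change was 2.17 ± 0.29 (SE from the fit over all total tissue libraries, n = 4 per arm), a 4.5-fold higher level (edgeR adjusted p = 5.93e-06). The RNA sensors Ifih1 (log2 fold change 1.02, adjusted p = 0.000399) and Dhx58 (2.05, adjusted p = 0.000597) also rose. Stat2 (1.48, adjusted p = 0.00053) and Irf9 (1.39, adjusted p = 0.000303), transcription factors downstream of the type I receptor, rose as well. Irf7, which amplifies interferon production, had a log2 fold change of 0.28 that did not pass (adjusted p = 0.43).

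Effectors of the same response rose with them. Oas1a, a synthetase of the oligoadenylate messenger that activates RNase L, was at 25.9, 36.0, 29.0 and 40.4 CPM in controls and at 65.3, 62.4, 118 and 110.4 CPM with T.mu. All T.mu libraries were above all controls, and the log2 fold change was 1.45 ± 0.23 (SE, edgeR adjusted p = 4.05e-05). Ifit2, an RNA-binding inhibitor of translation, was at 10.7, 12.6, 5.68 and 3.80 CPM in controls and at 71.8, 19.7, 91.0 and 76.4 CPM with T.mu, with litter 2 the lowest of the T.mu libraries and still above the controls. Its log2 fold change was 3.03 ± 0.41 (SE, adjusted p = 0.000122). Genes of the ubiquitin-like modifier ISG15 moved the same way: Isg15 rose by 2.48 on the log2 scale (adjusted p = 0.034), its conjugating enzyme Ube2l6 by 1.6 (adjusted p = 0.000142), its ligase Herc6 by 2.12 (adjusted p = 0.000485) and its protease Usp18 by 1.98 (adjusted p = 0.0035). Oasl1 (1.28) and Ifi27l2b (1.27) were further members among the 15 with the smallest p. Values for Ifit1bl2 (1.92), Ifit1bl1, Oas1a, Oas1g and Trim30a are uncertain to the extent that reads were split between near-identical gene copies.

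Of 51 tested members of the type I interferon list, 29 rose, 0 fell and 22 did not pass. The median log2 fold change of the list was 1.45, beside -0.11 over all tested genes. The summed level of the listed genes was 2774, 3098, 2510.1 and 2805 CPM in controls and 5503, 4642, 7608 and 5951 CPM with T.mu, so the groups did not overlap. The number that rose was 22 to 32 when each library was left out in turn and 29 with the GC and length offsets. It was 31 by DESeq2, 24 by limma voom, 19 without libraries under 400000 counts and 10 of the 22 members that could be tested after thinning to equal depth.

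**Figure D2:**
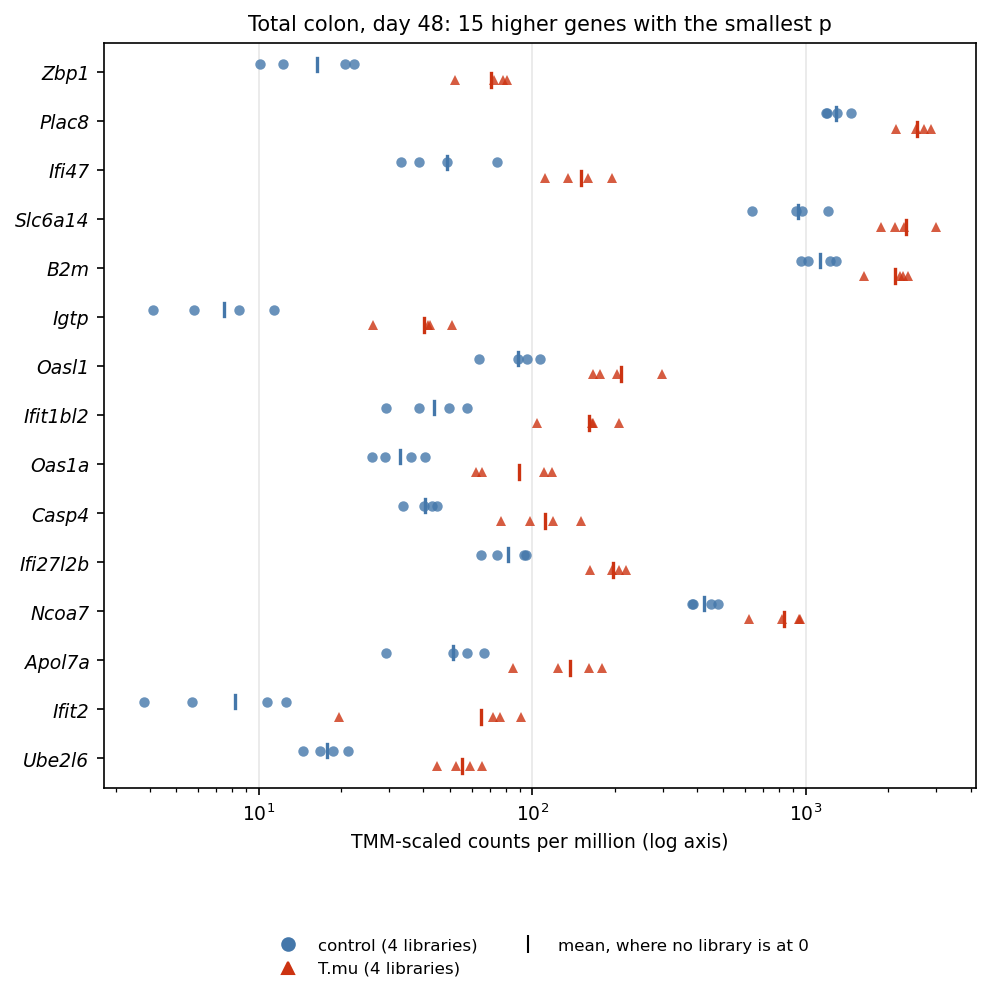
Level of the 15 genes with the smallest p among those that rose (rows) in each library of total colon at day 48, in TMM-scaled CPM on a log axis. Circles are the 4 control libraries, triangles the 4 T.mu libraries and short bars the group means. In all 15 genes the triangles lie to the right of the circles.

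Genes more closely tied to interferon-gamma also rose, among them immunity-related GTPases, which attack the vacuoles of intracellular microbes. Igtp was at 5.80, 8.49, 4.12 and 11.4 CPM in controls and at 42.4, 26.3, 41.5 and 51.0 CPM with T.mu. The lowest T.mu library was above the highest control, and the log2 fold change was 2.40 ± 0.36 (SE), 5.29-fold (edgeR adjusted p = 1.6e-05). The related Ifi47 rose by 1.61 ± 0.23 (adjusted p = 1.27e-05), Irgm2 by 1.61 ± 0.29 (adjusted p = 0.000369) and Irgm1 by 1.56 (adjusted p = 0.000747). B2m, the invariant chain of MHC class I, was at 1023, 1224, 964 and 1292 CPM in controls and at 1626, 2266, 2201 and 2361 CPM with T.mu, again without overlap (log2 fold change 0.91 ± 0.13, adjusted p = 1.6e-05). The peptide transporter Tap1 (1.47, adjusted p = 0.024), the immunoproteasome subunit Psmb9 (1.13, adjusted p = 0.036) and Cd274, which encodes the checkpoint ligand PD-L1 (1.32, adjusted p = 0.0034), completed the 8 members that rose.

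These 8 stood among 31 tested members of the interferon-gamma list, of which 0 fell, with a median log2 fold change of 0.91. The summed level of the list was 4611 to 5930 CPM in controls and 5882 to 7920 CPM with T.mu, so these sums overlapped. The number that rose was 12 with the GC and length offsets, 15 by DESeq2, 5 without libraries under 400000 counts and 6 to 10 when single libraries were left out. Gbp2 had a log2 fold change of 1.23 (adjusted p = 0.15) and Irf1 of 0.14 (adjusted p = 0.81), and neither passed. The cytokine and chemokine genes Ifng, Cxcl9 and Cxcl10 were too low to be tested: Ifng had 1 count in the 4 controls together and 0 with T.mu, Cxcl9 had 4 and 2, and Cxcl10 had 14 and 9.

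MHC class II genes were uneven between litters and did not pass. Cd74, the invariant chain, was at 30.3, 46.0, 55.1 and 407 CPM in control litters 1 to 4 and at 58.8, 527, 112 and 442 CPM in T.mu litters 1 to 4. Litter 4 was high in both arms and litter 2 with T.mu alone, so the groups overlapped (log2 fold change 1.06 ± 0.80, SE, edgeR adjusted p = 0.62). H2-Ab1 had the same layout, with 493 CPM in control litter 4 and 449.7 and 611 CPM in T.mu litters 2 and 4 (0.86 ± 0.80, adjusted p = 0.71). Of 9 tested members of the class II list 0 passed in edgeR's quasi-likelihood test, 1 had an unadjusted p under 0.05, and DESeq2 called 1 and limma voom 0. The list median was 0.86. Without control litter 4 the log2 fold change of Cd74 was 2.66 (edgeR adjusted p = 0.064), that of H2-Ab1 2.42 (0.11), and 1 class II member passed. In the other 7 single-library omissions Cd74 was at 0.48 to 1.38, the lowest without T.mu litter 2, and H2-Ab1 at 0.37 to 1.19, the lowest without T.mu litter 4.

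In the inflammasome list 2 of 24 tested members rose and 0 fell, with a list median of 0.50. Over all tested genes 1% rose. Casp4, which encodes the mouse sensor of cytosolic lipopolysaccharide, was at 42.8, 40.1, 33.7 and 45.0 CPM in controls and at 97.9, 151, 76.6 and 119 CPM with T.mu. The groups did not overlap (log2 fold change 1.45 ± 0.23, SE, edgeR adjusted p = 4.05e-05). Casp8, an initiator of apoptosis that also acts with inflammasomes, rose by 0.82 ± 0.19 (adjusted p = 0.013). This call was lost without T.mu litter 2 (adjusted p = 0.13), without control litter 3 (0.055) and with the GC and length offsets (0.074).

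The other inflammasome genes did not pass. Casp1, the caspase that matures IL-18, had a log2 fold change of 0.47 ± 0.18 (edgeR adjusted p = 0.20) and the adaptor Pycard of -0.15 ± 0.16 (adjusted p = 0.74). Il18 was at 49.5, 40.1, 35.6 and 36.1 CPM in controls and at 29.4, 36.1, 19.96 and 0 CPM with T.mu (-0.78 ± 0.37, adjusted p = 0.33). The sensor Nlrp1b was at 26.1 CPM in T.mu litter 1 and at 0 CPM in litter 4 (1.31 ± 0.60, adjusted p = 0.31). Gsdmd, the pore former downstream of these caspases, had 0.59 (adjusted p = 0.091). Nlrp3 and Il1b were too low to be tested, with 4 and 8 counts over the 4 controls and 0 and 4 counts over the T.mu libraries.

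Genes of epithelial defence rose in part in total tissue. Slc6a14, a transporter of neutral and basic amino acids that colonic epithelium increases in inflammation, was at 1208, 922, 968 and 634 CPM in controls and at 2282, 2999.9, 1884 and 2115 CPM with T.mu. Every T.mu library was above every control, and the log2 fold change was 1.31 ± 0.17 (SE), 2.49-fold (edgeR adjusted p = 1.27e-05). Plac8, a gene of the surface epithelium, was at 1457, 1296, 1197 and 1188 CPM in controls and at 2530.2, 2869, 2130.0 and 2701 CPM with T.mu (0.99 ± 0.14, adjusted p = 1.27e-05). Lypd8, a secreted protein that keeps flagellated bacteria off the colonic epithelium, rose by 0.52 ± 0.12 (adjusted p = 0.0065). Nfkbiz, the IκBζ cofactor of IL-17 signalling, rose by 0.86 ± 0.23 (adjusted p = 0.035), a call that 5 of the 8 single-library omissions ended (controls 1, 3 and 4 and T.mu litters 2 and 4, adjusted p up to 0.18). In the day 48 epithelium Slc6a14 had -0.13, Plac8 0.32, Lypd8 0.49 and Nfkbiz 0.80 (edgeR adjusted p = 0.99, 0.94, 0.41 and 0.34). Only for Slc6a14 did the difference between total tissue and epithelium pass (edgeR adjusted p = 0.0018).

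Slc6a14, Lypd8 and Nfkbiz were the 3 of 26 tested members of the antimicrobial and IL-17/IL-22 list that rose, and 0 fell, with a list median of 0.80. Duox2, the epithelial peroxide-generating oxidase, was at 46.9, 99.2, 55.3 and 119.6 CPM in controls and at 176, 610.5, 156 and 225 CPM with T.mu. The groups did not overlap, but litter 2 stood far above the rest and the change did not pass (log2 fold change 1.88 ± 0.53, SE, edgeR adjusted p = 0.10). With litter numbers within each day as a block, its edgeR adjusted p was 4.4e-11, and the list then held 8 members that rose. With litter alone as a block the Duox2 value was 0.13, and 3 members rose. The acute-phase gene Saa1 was at 1203 CPM in T.mu litter 2 and at 257 to 353 CPM in the other T.mu libraries, with controls at 70.2 to 319.9 CPM (1.81 ± 0.66, adjusted p = 0.23, or 0.03 with litter within day and 0.24 with litter alone as a block). Reg3g, a C-type lectin that kills Gram-positive bacteria, was at 231, 2479, 85.6 and 1589 CPM in control litters 1 to 4 and at 108, 15326, 83.0 and 3108 CPM in T.mu litters 1 to 4. Litters 2 and 4 were high in both arms (2.09 ± 1.48, adjusted p = 0.59), and without T.mu litter 2 the log2 fold change was -0.04.

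Surface colonocyte genes did not move in 1 direction. Of 27 tested members of the absorptive colonocyte list 3 rose (Plac8, Lypd8 and the keratin Krt20, log2 fold change 0.55) and 3 fell, among them Phgr1 (-0.61) and the phosphate carrier Slc20a1 (-1.04). The summed level of the list was 82847 to 94464 CPM in controls and 103350 to 114690 CPM with T.mu, without overlap. The scaled sum over all tested genes did not overlap either, at 899600 to 971500 CPM in controls and 992100 to 1110000 CPM with T.mu. The part of the list's shift in the changes of epithelial genes was not tested. Phgr1 did not pass without T.mu litter 4 (edgeR adjusted p = 0.077) or with the GC and length offsets (0.51). Cldn3, a tight junction claudin, was at 712, 646, 799 and 728 CPM in controls and at 392, 505, 532 and 450.1 CPM with T.mu (-0.61 ± 0.15, SE, adjusted p = 0.013). Its call was lost without control litter 3 (0.073), without T.mu litter 1 (0.055) and with the offsets, where the adjusted p was 0.996.

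Few genes of other mucosal responses passed the threshold, which 1% of all tested genes passed as higher. In the type 2 list, Ccl8, a monocyte and eosinophil chemokine, was the 1 of 12 tested members that rose, while 4 rose by DESeq2, 3 with relative log expression scaling, and 0 with the GC and length offsets or by limma voom. It was at 23.2, 16.4, 29.3 and 26.9 CPM in controls and at 13.1, 72.2, 52.7 and 76.4 CPM with T.mu, so litter 1 lay below the controls (log2 fold change 1.17 ± 0.32, SE, edgeR adjusted p = 0.035, and 0.05 to 0.19 in 7 of the 8 single-library omissions). Retnlb, a goblet cell gene induced by IL-13, was at 149 CPM in T.mu litter 4, at 29.4 to 62.4 CPM in the other T.mu libraries and at 21.3 to 32.1 CPM in controls (1.22 ± 0.57, adjusted p = 0.37). The tuft cell kinase Dclk1 had -0.08 ± 0.32 (adjusted p = 0.94) and the mucin Muc2 -0.51 ± 0.34 (adjusted p = 0.56).

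Of 11 tested tuft cell genes and 24 tested goblet cell genes 0 passed in edgeR's quasi-likelihood test. At an unadjusted p under 0.05 0 tuft cell genes and 3 higher and 3 lower goblet cell genes were found, and DESeq2 called 2 goblet cell genes higher and limma voom 1. Jchain, which joins polymeric IgA and IgM, was at 87.5, 116, 198 and 164 CPM in controls and at 320.0, 305, 206 and 238 CPM with T.mu. The T.mu libraries were above the controls, most clearly in litters 1 and 2 (log2 fold change 0.90 ± 0.19, SE, adjusted p = 0.0035, and 0.48 with the GC and length offsets). It was the 1 of 18 tested plasma cell genes that passed, and the IgA heavy chain Igha had 0.62 ± 0.21 (adjusted p = 0.15).

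Sterol synthesis genes rose in part, and 2 fatty acid genes on the same list fell. Msmo1, a sterol demethylase, was at 178, 243, 166 and 211 CPM in controls and at 268, 574, 282 and 433 CPM with T.mu, without overlap (log2 fold change 0.96 ± 0.20, SE, edgeR adjusted p = 0.0035). Cyp51, another sterol demethylase, rose by 0.77 ± 0.20 (adjusted p = 0.029) and the synthase Hmgcs1 by 1.16 (adjusted p = 0.033). Scd1 and Fasn (-1.38, adjusted p = 0.038), which make and desaturate fatty acids and are abundant in fat, were the 2 of the 32 tested members of the cholesterol and lipid synthesis list that fell, against 4 that rose. The list median was 0.36. Without T.mu litter 2, which had the highest level of Msmo1, 0 members passed (adjusted p = 0.053 for Msmo1), and without control litter 3 only 1 rose. Cyp51 did not pass with the GC and length offsets (0.11).

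Adipocyte genes were lower with T.mu. Fabp4, the fatty acid binding protein of adipocytes, was at 94.2, 389, 115 and 278 CPM in control litters 1 to 4 and at 45.7, 26.3, 12.8 and 51.0 CPM in T.mu litters 1 to 4. Control litters 2 and 4 stood highest, and all T.mu libraries lay below all controls (log2 fold change -2.97 ± 0.53, SE, edgeR adjusted p = 0.0082). Car3, a carbonic anhydrase of fat and muscle, was at 243, 1135, 208 and 545 CPM in controls and at 52.2, 49.2, 24.0 and 55.2 CPM with T.mu, again without overlap (-3.69 ± 0.70, adjusted p = 0.014). Neither gene passed with only the 8 libraries fitted (edgeR adjusted p = 0.16 for Fabp4 and 0.10 for Car3), after thinning to equal depth (0.15 and 0.061) or without libraries under 400000 counts (0.060 and 0.098), with log2 fold changes of -2.58 to -3.64 for Fabp4 and -3.42 to -3.99 for Car3. Mean Car3 levels at days 3, 14 and 48, scaled over all 40 libraries, were 4.36, 49.4 and 512 CPM in control tissue. In T.mu tissue they were 42.0, 54.0 and 43.1 CPM. Scd1, the stearoyl-CoA desaturase, was at 149, 674, 270.4 and 749 CPM in controls and at 65.3, 65.6, 57.5 and 136 CPM with T.mu (-2.61 ± 0.52, adjusted p = 0.018, and 0.066 without T.mu litter 2). The lipid droplet gene Cidec fell by 1.23 on the log2 scale (adjusted p = 0.0072), with control litter 1 at 45.1 CPM and T.mu litters 1 and 4 at 45.7 and 51.0 CPM, and did not pass without control litter 2 (0.073), without T.mu litter 3 (0.052) or with the GC and length offsets (0.069).

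Rbp4, the plasma carrier of retinol made by liver, fat and also epithelium, was at 10.7, 16.4, 9.94 and 16.8 CPM in controls, from 212 counts, and had 0 counts in every T.mu library. Against a floor of 3 counts over the T.mu group its level was at least 10.4-fold lower if each count is a separate fragment (adjusted p = 0.000403, edgeR's quasi-likelihood test). Scaled over all 40 libraries, mean Rbp4 in the day 48 epithelium was 17.5 CPM in controls and 19.6 CPM with T.mu. In control total tissue it was 12.9 CPM, so Rbp4 does not mark fat alone here. Lipe (-1.74, adjusted p = 0.015), Lpl (-2.22, adjusted p = 0.018) and Cfd (-3.31, adjusted p = 0.045) brought the adipocyte members that fell to 8 of 22 tested, with 0 that rose, and Adipoq had -3.05 (adjusted p = 0.062). The list median was -1.52 against -0.11 over all tested genes, and 11 members did not overlap, against a background of 6.72% wholly below. The summed adipocyte level was 1682, 5350, 2022 and 3856 CPM in controls and 988, 1164, 970.0 and 1254 CPM with T.mu. The count that fell was 5 with the GC and length offsets, 2 when only the 8 libraries were fitted, 3 without the shallow T.mu litters 1 and 4, 1 of 24 tested without libraries under 400000 counts, 1 of 12 after thinning to equal depth, and 5 to 10 with single libraries left out, the lowest without T.mu litter 3 or 4. At days 3 and 14 the list medians were 0.27 and -0.02.

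**Figure D3:**
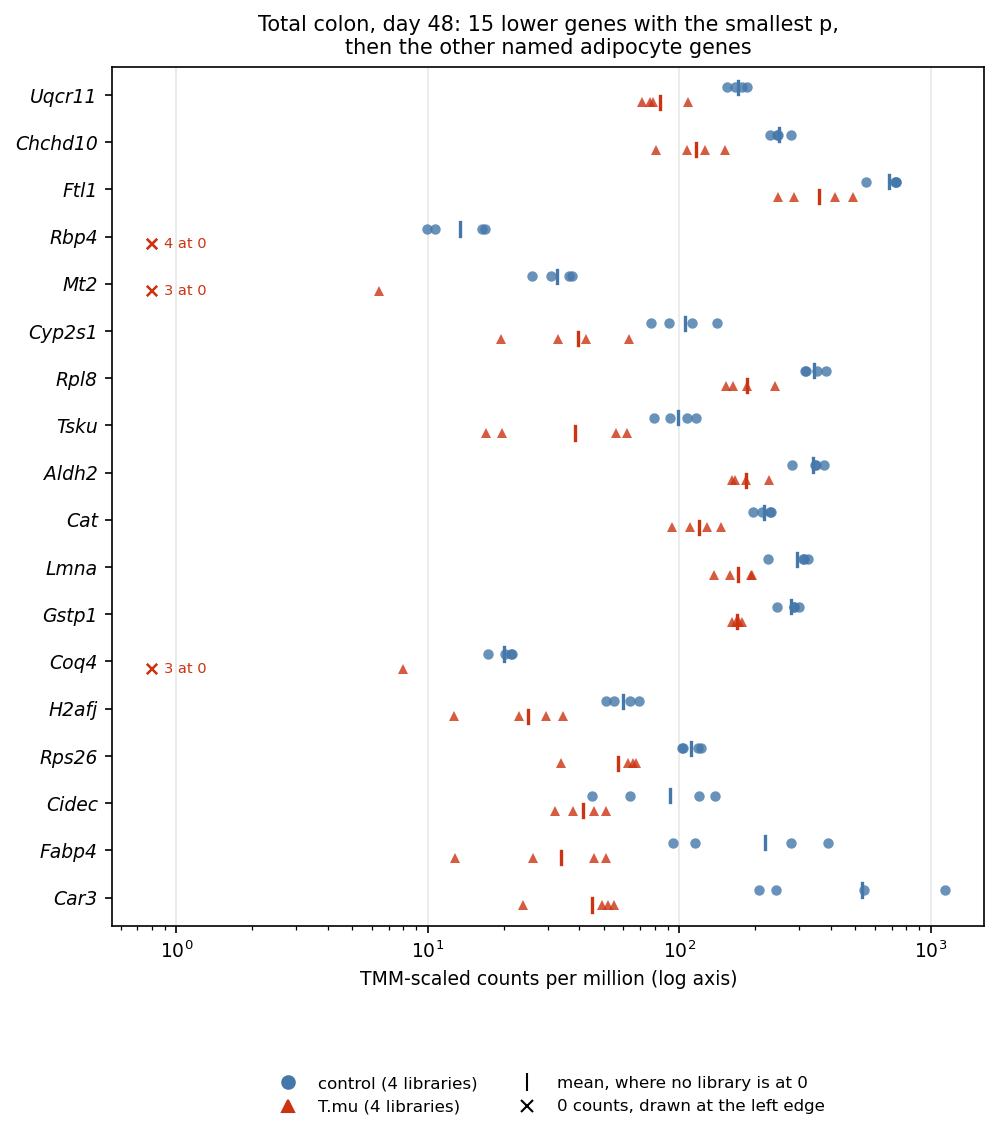
Level of the 15 genes with the smallest p among those that fell, followed by 3 further adipocyte genes (rows), in each library of total colon at day 48, in TMM-scaled CPM on a log axis. Circles are controls, triangles T.mu libraries, short bars group means where no library is at 0, and crosses at the left edge mark libraries with 0 counts: 4 for Rbp4 and 3 each for Mt2 and Coq4. Cidec is the gene shown whose groups overlap.

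Mitochondrial genes encoded in the nucleus were lower for a few members. Uqcr11, a subunit of respiratory complex III, was at 187, 178, 166 and 155 CPM in controls and at 78.4, 108, 71.1 and 76.4 CPM with T.mu. All T.mu libraries were below all controls (log2 fold change -1.03 ± 0.18, SE, edgeR adjusted p = 0.000329, but 0.10 with the GC and length offsets). Chchd10, a protein of the mitochondrial intermembrane space, was at 229, 247, 244 and 279 CPM in controls and at 108, 126, 152 and 80.7 CPM with T.mu (-1.04 ± 0.19, adjusted p = 0.000329, and 0.034 with the offsets). Coq4, needed for ubiquinone synthesis, was at 17.4 to 21.6 CPM in controls and at 0 CPM in 3 T.mu libraries, with 7.98 CPM in litter 3 (-2.40 ± 0.54, adjusted p = 0.0065, and 0.055 without T.mu litter 2).

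In the list of nuclear-encoded respiratory genes 4 of 74 tested members fell and 0 rose (Uqcr11, the ATP synthase subunits Atp5d and Atp5e and the complex I subunit Ndufa7), with a median of -0.24. Over all tested genes 0.804% fell. Uqcr11 kept its call in each of the 8 single-library omissions, and it was the 1 member left in 6 of them (all but those of T.mu litters 2 and 3). With the GC and length offsets 2 members fell. In fatty acid oxidation and ketogenesis 3 of 29 tested members fell, among them the thiolases Acaa1b (log2 fold change -1.02, edgeR adjusted p = 0.016) and Acaa2 (-0.68, adjusted p = 0.048). None of the 3 passed without control litter 3 (adjusted p up to 0.13), without T.mu litter 2 (up to 0.17) or without T.mu litter 4 (up to 0.20), and 1 passed with the GC and length offsets. The 9 tested genes of the mitochondrial genome had 0 calls (1 at an unadjusted p under 0.05, and 1 each by DESeq2 and limma voom) and a median of 0.10, and their summed level was 111910.0 to 148990.0 CPM in controls and 152760.0 to 213730.0 CPM with T.mu. Over all tested genes the scaled sum was 899600 to 971500 CPM in controls and 992100 to 1110000 CPM with T.mu. The median of the mitochondrial genome list turned to -0.35 with the GC and length offsets and to -0.38 with offsets and litter block, where 1 member fell.

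Detoxification and metal-binding genes fell in part. Mt2, a metallothionein that binds zinc and copper, was at 25.9, 36.3, 37.5 and 30.9 CPM in controls and at 0 CPM in 3 T.mu libraries, with 6.39 CPM in litter 3 (log2 fold change -3.38 ± 0.60, SE, edgeR adjusted p = 0.00056). The T.mu libraries at 0 held 236155 to 691171 mouse counts. Mt2 did not pass without libraries under 400000 counts (-3.01, edgeR adjusted p = 0.10). It had no result by DESeq2 or after thinning to equal depth. Ftl1, the ferritin light chain, was at 726, 723, 727 and 551 CPM in controls and at 415, 286, 493 and 246 CPM with T.mu, without overlap (-0.90 ± 0.16, adjusted p = 0.000384). Near-identical copies make the Ftl1 value uncertain, and its adjusted p was 0.069 with the GC and length offsets. Mt2 and Ftl1 were the 2 of 19 tested members of their list that fell, and 0 rose. Catalase (Cat, -0.85 ± 0.18) and the aldehyde dehydrogenase Aldh2 (-0.85 ± 0.18) fell with adjusted p = 0.0024 each.

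Of 36 tested xenobiotic genes 4 fell and 1 rose, with a median of -0.44, beside 0.804% lower and 1% higher over all tested genes. The cytochrome P450 Cyp2s1 was at 141, 77.0, 113 and 91.4 CPM in controls and at 19.6, 32.8, 63.1 and 42.5 CPM with T.mu, without overlap (log2 fold change -1.29 ± 0.24, SE, edgeR adjusted p = 0.000597). The glutathione transferases Gstp1 (-0.71, adjusted p = 0.0053, uncertain for its copy Gstp2) and Mgst1 (-0.69, adjusted p = 0.039) and the carboxylesterase Ces1d (-0.72, adjusted p = 0.046) also fell. The sulfotransferase Sult1b1 rose by 0.54 (adjusted p = 0.033). With the GC and length offsets the log2 fold change of Sult1b1 was 0.08 (edgeR adjusted p = 0.91) and that of Gstp1 -0.47 (0.14). The list then stood at 5 lower and 0 higher. With single libraries left out the number that fell was 10 without T.mu litter 3, 3 without control litter 2 and 2 in each of the other 6 omissions. Mgst1 lost its call in each single-library omission (adjusted p up to 0.18).

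Cytoplasmic ribosomal protein genes had 5 of 79 tested members that fell and 0 that rose, with a list median of -0.41, beside 0.804% lower over all tested genes. Rpl8 was at 353, 317, 382 and 319.8 CPM in controls and at 163, 185, 240.3 and 153 CPM with T.mu, without overlap (log2 fold change -0.85 ± 0.16, SE, edgeR adjusted p = 0.000597, and 0.12 with the GC and length offsets). Rps26 fell by 0.90 ± 0.20 (adjusted p = 0.0068, and 0.008 with the offsets), Rplp0 by 0.69 (adjusted p = 0.015) and Rps19 by 0.78 (adjusted p = 0.0496). Rplp0 lost its call in 4 of the 8 single-library omissions (adjusted p up to 0.098). The summed level of the list was 11316, 9498, 12035 and 9577 CPM in controls and 8454, 7846, 9141 and 6475 CPM with T.mu, without overlap. Values for these genes are uncertain where processed pseudogenes share their reads. Without the shallow T.mu litters 1 and 4 the list had 0 calls, and it had 2 to 9 with single libraries left out, the highest without T.mu litter 3 and the lowest, 2, without control litter 3 or T.mu litter 2 or 4.

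**Figure D4:**
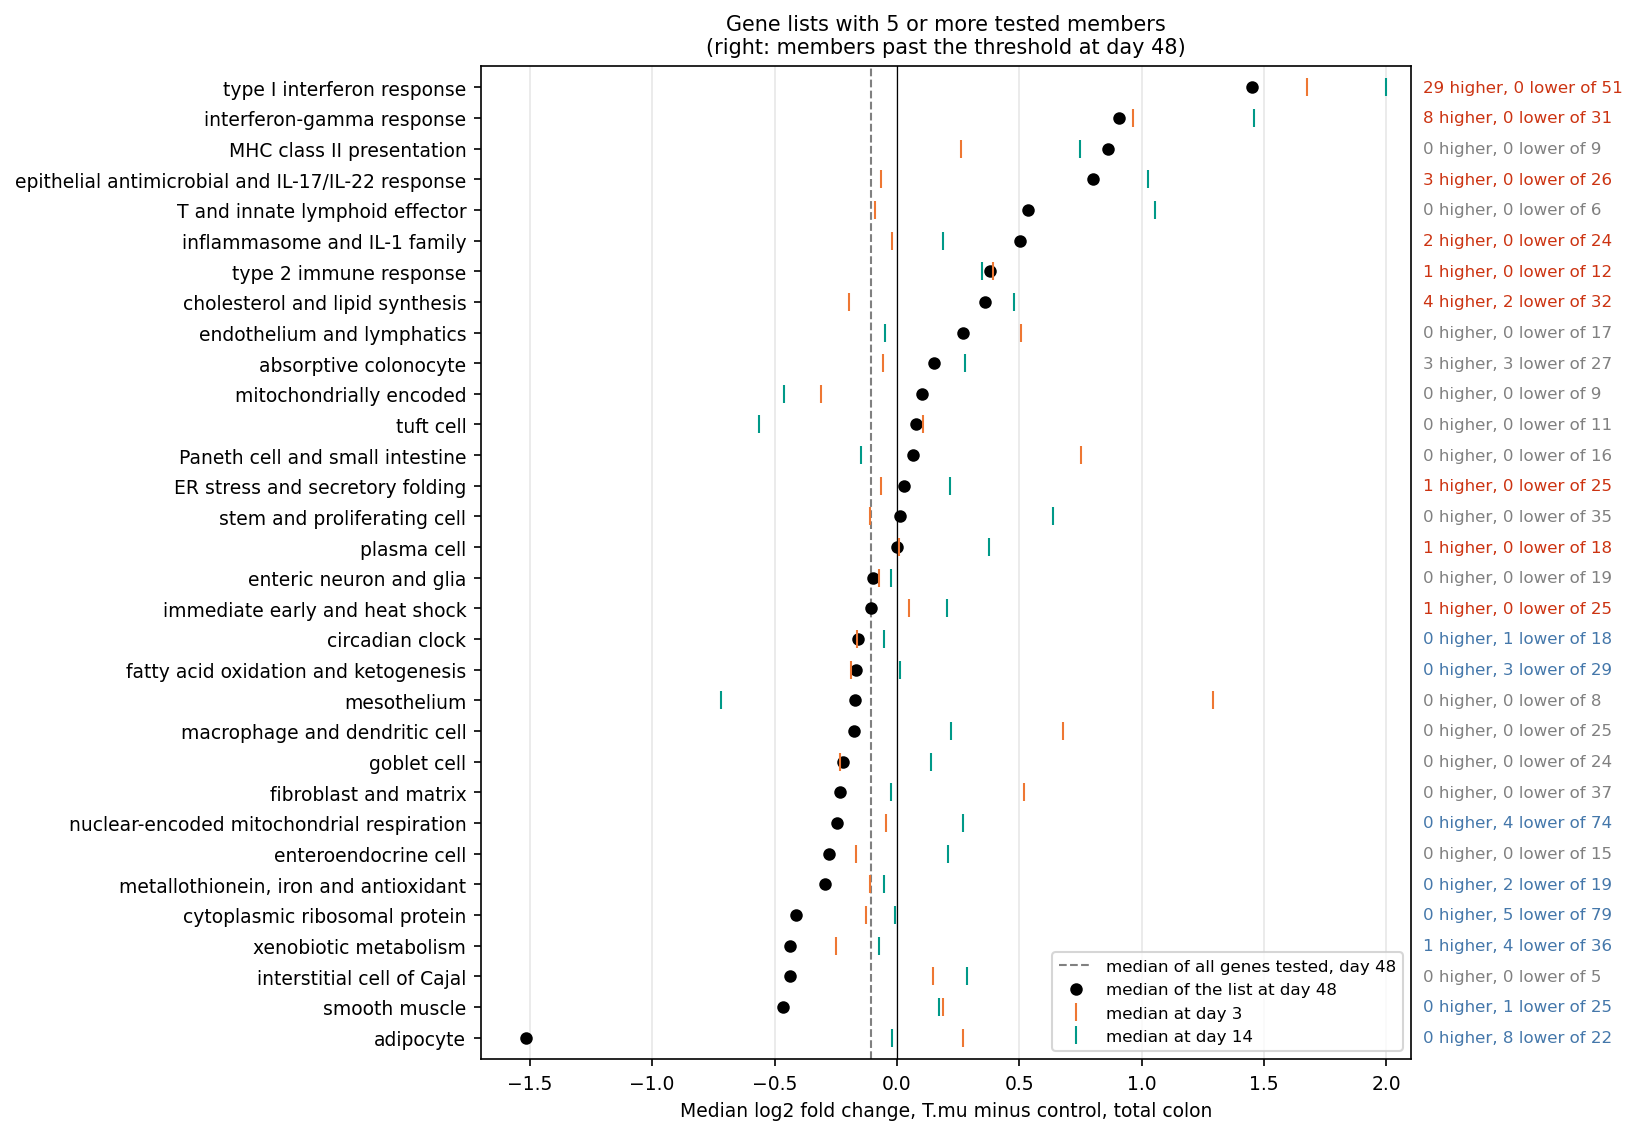
Median log2 fold change, T.mu minus control, of each list of genes with 5 or more tested members in total colon at day 48 (dots), with the medians of the same list at day 3 and day 14 (ticks) and the median of all tested genes at day 48 (dashed line). Counts at the right give the members that passed the threshold at day 48. The type I interferon list is at 1.45 with 29 of 51 members higher, and the adipocyte list at -1.52 with 8 of 22 lower.

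Markers of the cell types that total colon can hold mostly did not pass. In edgeR's quasi-likelihood test 0 members passed in the lists for stem and proliferating cells (35 tested), fibroblasts (37), macrophages and dendritic cells (25), enteric neurons and glia (19), endothelium (17), enteroendocrine cells (15), mesothelium (8), T and innate lymphoid effectors (6) and B cells (4). At an unadjusted p under 0.05 fibroblast genes had 0 higher and 5 lower, macrophage genes 1 higher and 3 lower and stem cell genes 0. DESeq2 called 1 macrophage gene higher and 1 enteroendocrine gene lower, and limma voom none of these. Flna, the actin crosslinker filamin A, was the 1 of 25 smooth muscle genes that fell (log2 fold change -0.80 ± 0.21, SE, adjusted p = 0.041, and up to 0.15 in the 6 single-library omissions that ended the call), and the smooth muscle sum was 7485 to 10338 CPM in controls and 9008, 5725, 8312 and 4684 CPM in T.mu litters 1 to 4. The neutrophil sum was 23.3 to 40.5 CPM in controls, 32.4 and 19.0 CPM in T.mu litters 1 and 3 and 162 and 118 CPM in T.mu litters 2 and 4, with 0 of 4 tested genes past the threshold. The part of these shifts in the changes above was not tested.

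Further genes with small p belonged to none of these groups. Among those that rose were Ncoa7, a nuclear receptor coactivator with an interferon-inducible form (log2 fold change 0.98 ± 0.16, SE, edgeR adjusted p = 5.71e-05), and the apolipoprotein L gene Apol7a (1.44 ± 0.23, adjusted p = 9.02e-05). Among those that fell were Tsku, a secreted proteoglycan (-1.28 ± 0.25, adjusted p = 0.0018), Lmna, which encodes lamins A and C of the nuclear lamina (-0.78 ± 0.16, adjusted p = 0.003), and the histone gene H2afj (-1.21 ± 0.27, adjusted p = 0.0065). Nr1d1, which encodes the clock repressor REV-ERBα, was at 47.7, 43.6, 72.9 and 45.6 CPM in controls and at 19.6, 1.64, 22.4 and 34.0 CPM with T.mu (-1.57 ± 0.36, adjusted p = 0.015, and 0.069 with the GC and length offsets). It was the 1 of 18 tested clock genes that passed. The transcription factor Klf4 of differentiated epithelium (0.66, adjusted p = 0.041) and the disulfide isomerase Pdia3 (0.59, adjusted p = 0.044) rose, calls that 6 of 8 single-library omissions ended in each (adjusted p up to 0.14 and 0.25). Mfap2, a protein of elastic microfibrils, had 4.10 to 6.96 CPM in controls, from 92 counts, and 0 counts with T.mu. Its level was at least 4.5-fold lower against the floor of 3 counts over the group if each count is a separate fragment (edgeR adjusted p = 0.033, and up to 0.12 without T.mu litter 3).

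The interferon genes that rose at day 48 were for the most part called higher at days 3 and 14 as well. Of the 117 genes that rose at day 48, 37 stood on an interferon list, and these had medians of 1.61 at day 48, 1.71 at day 3, 2.53 at day 14 and 1.36 in the epithelium at day 48. They passed as higher for 31 genes at day 3, 34 at day 14 and 14 in the epithelium, where 0.462%, 0.821% and 0.194% of all tested genes did. The other 80 had medians of 0.87, 0.11, 0.47 and 0.14, and passed as higher for 7, 17 and 0 genes. The 94 genes that fell had medians of -1.23, -0.10, 0.04 and 0.11, and passed as lower for 0, 1 and 0 genes, where 0.00855%, 0.145% and 0.00845% of all tested genes did. In either direction 55 genes (0.47% of 11696 tested) passed at day 3 and 113 (0.966%) at day 14. The comparisons at each day have control libraries of their own, and passing at 1 day and not at another is no test of a difference. All these genes were chosen by their day 48 result, which by itself tends to enlarge their day 48 medians beside those of the other comparisons.

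The difference of the effects was tested in itself. In total tissue at day 3 and day 14 and in the day 48 epithelium, the arms shared their i5 index. In total tissue at day 48 they did not. In each of these differences, index therefore cannot be told apart from day or from tissue. Between day 48 and day 3, 10 of 11696 genes (0.0855%) differed, 2 (0.0171%) with a higher and 8 (0.0684%) with a lower effect at day 48, and 330 and 691 had an unadjusted p under 0.05. Slc6a14 had a log2 fold change of -0.07 at day 3 and 1.31 at day 48, a difference of 1.38 (edgeR adjusted p = 0.011), which did not pass with the GC and length offsets (0.29) without T.mu day 3 replicate 1 (0.057) or without T.mu day 3 replicate 3 (0.089). Its mean level in controls was 1647 CPM at day 3 and 896 CPM at day 48, and with T.mu 1575 and 2213 CPM, here scaled over all 40 libraries. Slc3a1, a subunit of cystine and dibasic amino acid transport, differed by 1.44 (adjusted p = 0.041), a call that ended with the offsets at a similar size (1.36, adjusted p = 0.064) and in 9 of 14 single-library omissions (up to 0.16). At day 48 it was at 97.7, 111, 73.6 and 121 CPM in controls and at 144, 276, 110.2 and 234 CPM with T.mu. Ifi27l2a, an interferon-inducible mitochondrial protein, had log2 fold changes of 2.1 at day 3, 1.33 at day 14 and -0.36 at day 48, a difference from day 3 of -2.46 (adjusted p = 0.0069).

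The Ifi27l2a difference held with the GC and length offsets (0.0079) and in all 14 single-library omissions, but not without the 2 shallow T.mu libraries of day 48 (0.11). Its mean level in control tissue was 65.3, 81.4 and 150.4 CPM at days 3, 14 and 48, and with T.mu 282, 186 and 117 CPM. At day 48 it was at 118, 227, 142 and 140.0 CPM in controls and at 121, 148, 102 and 119 CPM with T.mu, so the arms overlapped. Chchd10 (-1.51, adjusted p = 0.0048), Rbp4 (-8.88, adjusted p = 0.0048), Mfap2 (-8.81, adjusted p = 0.012) and Car3 (-6.99, adjusted p = 0.027) also had a lower effect at day 48. Mean Car3 was 4.36 CPM at day 3 and 512 CPM at day 48 in control tissue, and 42.0 and 43.1 CPM with T.mu. Rbp4 and Mfap2 had 0 counts in the T.mu arm of day 48, so their fitted sizes depend on the prior count and bound nothing. With the offsets the edgeR adjusted p was 0.064 for Chchd10 and 0.051 for Mfap2, and that of Car3 was 0.086 with litter as a block. Without T.mu day 3 replicate 3, the adjusted p was 0.084 for Chchd10 and 0.089 for Mfap2, and that of Mfap2 was 0.058 without T.mu litter 3 of day 48. Car3 did not pass in 6 of 14 single-library omissions (0.052 to 0.10).

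Between day 48 and day 14, 5 genes (0.0427%) had a lower effect at day 48 and 0 a higher one, while 334 and 941 had an unadjusted p under 0.05. These were Cldn3 (difference -1.18, edgeR adjusted p = 0.021), Uqcr11 (-1.39, adjusted p = 0.028), Rbp4 (-8.92, adjusted p = 0.028), Atp5e (-1.14, adjusted p = 0.042) and Lgals9, a galectin induced by interferon (-1.20, adjusted p = 0.042). Lgals9 had log2 fold changes of 1.18, 1.62 and 0.41 at days 3, 14 and 48. Of 14 single-library omissions, 7 ended the call of Lgals9, 6 that of Atp5e, 3 that of Rbp4, 2 that of Uqcr11 and 1 that of Cldn3 (edgeR adjusted p up to 0.11). With the GC and length offsets, and also without T.mu day 14 replicate 1, 0 genes passed, and without control day 14 replicate 3 it was 117. The split between higher and lower effects was 6 and 7 with relative log expression scaling, 4 and 5 at a minimum count of 30, and 3 and 4 with halved counts.

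Between total colon and epithelium at day 48, 4 of 11834 genes (0.0338%) differed in their effect, 1 with a higher (0.00845%) and 3 with a lower effect (0.0254%) in total tissue. This fit took tissue and epithelium libraries of the same litter as independent. With litter as a block 3 genes differed, and with litter within day 14. Ifi27l2a had a log2 fold change of 3.18 in the epithelium, where its mean was 3.41 CPM in controls and 32.4 CPM with T.mu, against -0.36 in total tissue (difference -3.55, edgeR adjusted p = 0.0018). Ifitm3, a membrane protein that blocks viral entry, had 1.65 in the epithelium and -0.26 in total tissue (difference -1.92, adjusted p = 0.021), which did not pass with litter as a block (0.053), with relative log expression scaling (0.088) or in 7 of 16 single-library omissions (up to 0.11). Slc6a14 had -0.13 in the epithelium and 1.31 in total tissue (difference 1.43, adjusted p = 0.0018), which did not pass with the GC and length offsets (0.10). Rbp4 was at 17.5 CPM in control and 19.6 CPM in T.mu epithelium (difference -7.68, adjusted p = 0.0032). The Ifi27l2a, Slc6a14 and Rbp4 differences held in all 16 single-library omissions.

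**Figure D5:**
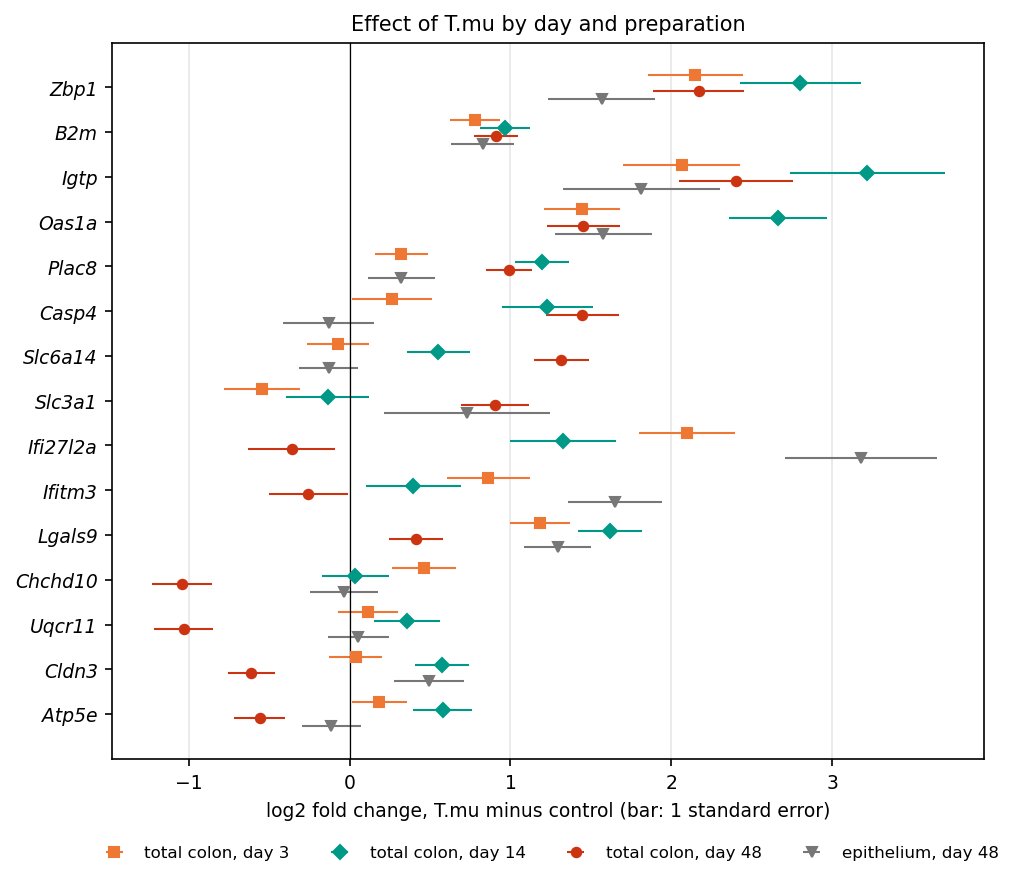
Log2 fold change, T.mu minus control, of 15 genes (rows) in total colon at days 3, 14 and 48 and in the epithelium at day 48 (symbols), with bars of 1 standard error. Zbp1, B2m, Igtp and Oas1a are above 0 in all 4 comparisons, Slc6a14 is at 1.31 in total colon at day 48 and at -0.13 in the epithelium, and Ifi27l2a is at -0.36 in total colon at day 48 and at 3.18 in the epithelium.

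The count table also held 1 entry that names no mouse gene. As a CPM of all counts it was at 5.40, 969, 27.5 and 5.11 in control litters 1 to 4 and at 5966, 1425, 7061 and 13105 in T.mu litters 1 to 4. Every T.mu library was above every control, and control litter 2 stood far above the other controls. The means were 252 ± 478 (SD, n = 4) and 6889 ± 4809 (SD, n = 4), a difference of 6637 (exact permutation test, two-sided, p = 0.0286, the smallest p of 70 splits). The sequence counted under this entry is not given in the sources used here.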

How the data were processed

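Mouse gene counts were used as deposited, and per the submitters' processing notes STAR and Subread made them. The genome build, annotation, strandedness and use of molecular identifiers in counting are not given in the sources used here. Small counts were mostly even, so the counts were also halved as an alternative. Symbols came from GENCODE M21 for 45143 of 45792 mouse gene identifiers (98.6%), and 1 entry that names no mouse gene (0.389% of all counts) stayed out of library sizes and tests. Samples were grouped by tissue, day and inoculum, and each table column was matched to a library by its sample name label.

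Genes were filtered with filterByExpr (minimum count 10, minimum total 15), TMM-scaled and tested with edgeR 4.0.16 in R 4.3.3 (robust quasi-likelihood F test, Benjamini-Hochberg over all tested genes, threshold 0.05), fitted over all total tissue libraries in 6 groups, or over all 40 libraries for the comparison with epithelium. The SE of a log2 fold change was its absolute value divided by the square root of its F statistic. Single values were compared with exact two-sided permutation tests. DESeq2 1.42.0, limma voom 3.58.1, other scaling and filters, litter blocks, GC and length spline offsets, thinning and the omission of single libraries were alternatives. The test was checked on simulated counts with known changes. The labels give each library's litter, and this is the source of the pairing. Deviations from the group means correlated at 0.32, 0.41, 0.61 and 0.41 between libraries of the same litter (2575 genes), but at -0.62 to 0.60 between different litters, and only 2 of 4 controls correlated best with their own litter. Genes named by rule were the 15 higher and 15 lower with the smallest p that moved alike in all 4 litter pairs, up to 4 called members per list, a fixed set of 20 genes and up to 5 per direction for each difference of effects. Predicted genes and pseudogenes were skipped (3 higher, 1 lower). A few genes that these rules pick are not reported here. Other named genes were chosen after their values were seen. The members and gene lists were chosen with earlier results of these data known. RefSeq promoters matched 25 of the 30 genes with the smallest p. PCR reads are not independent molecules, so a floor of 3 counts covers counting error only. The bounds from this floor were not recomputed with halved counts and would be smaller if both mates of a pair were counted.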

Additional observations from a re-analysis of the deposited data

Results flagged for a closer look

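In 15 of 160 groups of 4 libraries examined, 1 library stood far from the other 3 of its group. In controls these were litter 4 for Cd74 (407 CPM), H2-Ab1 (493 CPM) and, on the low side, Ftl1 (551 CPM), litter 1 on the low side for Lmna (226 CPM), litter 2 for Mgst1 (237 CPM) and Nfkbiz (135 CPM), and litter 3 for Nr1d1 (72.9 CPM). Control litter 2 also stood apart for the entry that names no mouse gene (969 CPM of all counts). In the T.mu arm these were litter 2 for Duox2 (610.5 CPM) and Saa1 (1203 CPM), litter 3 for Mt2 (6.39 CPM), Coq4 (7.98 CPM) and Rplp0 (288 CPM), and litter 4 for Scd1 (136 CPM) and, on the low side, Rps26 (34.0 CPM). For 4 independent normal values, chance would give about 1 in 20 groups such a value. Many genes here were chosen by their day 48 result, and CPM values, some of them 0, need not be normal. That rate may therefore not hold for these groups.

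The effect of T.mu differed from that of another day or of the epithelium, by a test of the difference itself in edgeR, for 12 genes. The arms shared their i5 index in each of these other comparisons but not in the day 48 tissue, so index cannot be told apart. From day 3 the log2 differences were 1.38 for Slc6a14, 1.44 for Slc3a1, -8.88 for Rbp4, -1.51 for Chchd10, -2.46 for Ifi27l2a, -8.81 for Mfap2 and -6.99 for Car3. From day 14 they were -1.18 for Cldn3, -1.39 for Uqcr11, -8.92 for Rbp4, -1.14 for Atp5e and -1.20 for Lgals9. From the epithelium at day 48 they were 1.43 for Slc6a14, -3.55 for Ifi27l2a, -7.68 for Rbp4 and -1.92 for Ifitm3. The values for Rbp4 and Mfap2 rest on 0 counts in the T.mu tissue of day 48.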

How the results depend on the processing

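The 211 genes past the threshold at day 48 became 119 with GC and length offsets, 140 with those offsets and the litter block, 99 without libraries under 400000 counts, 120 with only the 8 libraries fitted, 71 of 3071 tested after thinning to equal depth, 370 by DESeq2, 101 by limma voom and 97 without T.mu litters 1 and 4, an omission chosen after seeing the data. With single libraries left out the count ranged from 99 (without control litter 3) to 291 (without T.mu litter 3), with 116 without T.mu litter 4 and 138 without T.mu litter 2. Without a filter on low counts the split turned to 82 higher and 180 lower, and with halved counts it was 155 and 67. Litter as a block gave 217 genes, and litter within day 241. Of 58 named genes past the threshold, the litter block ended the call of Atp5e (adjusted p = 0.051) and no other, litter within day those of Atp5e (0.055), Mfap2 (0.059) and Ccl8 (0.068), and 35 kept their call in every single-library omission. All 58 kept their direction with either block and in every single-library omission.

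The 10 genes whose effect differed from day 3 became 41 with no filter, 38 with litter within day as a replicate block, 4 with the offsets, 3 with offsets and litter block, 2 without T.mu litters 1 and 4, and 2 to 20 with single libraries left out. The 5 from day 14 became 13 with relative log expression scaling, 63 with no filter, 9 at a minimum count of 30, 8 with the litter block, 25 with litter within day as a block, 2 without T.mu litters 1 and 4, and 0 to 117 with single libraries left out. They became 0 with the offsets, with or without the litter block, without libraries under 400000 counts and with only the libraries of that comparison. The 4 from the epithelium became 27 with no filter, 11 with halved counts, 14 with litter within day as a block, 11 without libraries under 400000 counts, and 3 to 15 with single libraries left out. The difference in the entry that names no mouse gene was 4565 to 8459 with single libraries left out (exact permutation p = 0.0571, the smallest possible). With single libraries left out, the log2 fold change of Reg3g ranged from -0.043 to 2.87 and that of Dclk1 from -0.43 to 0.24, both turned in sign without T.mu litter 2. The causes of these changes were not tested. Depth limits the T.mu arm, whose shallowest library held 239291 counts.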

Other observations

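Genes of small intestinal and absorptive type were uneven between litters in both arms of total colon at day 48. These were chosen after their values were seen and are given as CPM of mouse counts without TMM scaling. Apoa1, an apolipoprotein, was at 8.995, 418, 12.7 and 2344 in control litters 1 to 4 and at 56.6, 2263, 8.85 and 1071 in T.mu litters 1 to 4. The aminopeptidase Anpep was at 5.40, 511, 22.8 and 1543 in controls and at 69.1, 2104, 19.2 and 1304 with T.mu. Litters 2 and 4 were thus the high ones in both arms, as they were for the aminopeptidase Enpep, the dipeptidyl peptidase Dpp4 and the lectin Reg3b. In the epithelium of the same litters Apoa1 was at 0 to 3.67 and Anpep at 1.08 to 8.40 in all 8 libraries. Reg3b in the epithelium was at 312 to 1276 in controls and at 239 to 781 with T.mu, with control litter 4 and T.mu litter 1 the highest. The 16 tested genes of the Paneth cell and small intestine list had 0 calls between the arms in edgeR's quasi-likelihood test, 0 at an unadjusted p under 0.05 and 0 by DESeq2 or limma voom. Their summed TMM-scaled level was 1861, 3371, 2335 and 8257 CPM in control litters 1 to 4 and 2387, 8601, 2739 and 5740 CPM in T.mu litters 1 to 4.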
